A study of Mus musculus with 12 samples.

Results

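Maternal and paternal alleles were compared within the retinas of reciprocal F1 hybrids between C57BL/6J, the common laboratory strain, and Cast/EiJ, an inbred strain derived from wild Mus musculus castaneus. The comparison rests on 6 of the 12 libraries of the series, 3 of F1 B6xCast, born to Cast/EiJ mothers and C57BL/6J fathers, and 3 of F1 CastxB6, born to C57BL/6J mothers and Cast/EiJ fathers. All mice were males aged 8 weeks that carried no transgene named in the labels, and each library was a pool of 6 to 8 retinas. The F0 libraries of the pure strains hold no pair of distinguishable alleles and were not used. The unit of measurement is the unique hit, a sequenced read pair assigned to a single gene and, through a sequence difference between the strains, to a single allele of it. Autosomal genes averaging 10 or more such hits per F1 library were kept, which left 13414 of 34964 autosomal genes (37991 genes in all).

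Genomic imprinting is the expression of a gene from the allele of only 1 parent, or mostly from it. It is set by DNA methylation of control regions that differs between sperm and egg, persists in body cells and is read by neighbouring genes, so that imprinted genes lie in groups whose members can follow opposite parents. Strong imprinting is known for genes of growth control and for many genes of the nervous system, and some of these are imprinted in the brain but not in other tissues. In a reciprocal cross, an effect of the parent keeps its direction when the strains of the parents are exchanged, whereas an effect of the strain turns with the exchange.

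The libraries held 8808577 to 12363291 allele-specific unique hits each. As a check of the labels, and as a measure of hits assigned to the wrong allele, the X chromosome of these males can come only from the mother. The paternal strain received 0.468% to 0.637% of the X chromosomal hits per library (0.526% of 1171440 hits over all 6). This share varied among X genes, with a median of 0.0803% and a 95th percentile of 2.98% over 421 genes with at least 100 hits. The labelled tissue carried rod markers in quantity, with summed levels of 35200 to 38100 FPKM per library, whereas lens markers summed to 11.2 to 24.4 FPKM and markers of retinal pigment epithelium to 8.88 to 22.1 FPKM. In a chi-square comparison of hits per gene, B6xCast replicate 1 differed from every other library by 9.19 to 11.3 per degree of freedom, against 1.69 to 3.04 among the other 5. The comparison below was therefore also made without it. That fit called 49 genes, 46 of them shared with the 50 below, and the genes that lost the call are named with their values.

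The parental allele was associated with expression at few genes. In edgeR's quasi-likelihood test, with the library as a block and the strain of the allele as a covariate, 60 genes had an adjusted p under 0.05, and 718 had an unadjusted p under 0.05. Of the 60, 50 had the same parental direction in both crosses and were called, which is 0.373% of the 13414 genes tested. The maternal allele was higher in 16 of them (0.119% of those tested) and the paternal allele in 34 (0.253%). The strain of the allele, in the same fit, passed the threshold at 7476 genes, or 55.7%. The other 10 genes past the parental threshold had opposite fitted directions in the 2 crosses. Their fitted log2 maternal over paternal ratios were between 0.10 and 0.62 in size. All 10 also differed by strain, which follows from the fit, since directions are opposite only where the strain term is larger than the parental term. Over all genes tested the median log2 ratio was 0.00 and the median size of the ratio 0.05. The plot of the reciprocal ratios shows the strain effects on the falling diagonal and the called genes on the rising one.

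**Figure D1:**
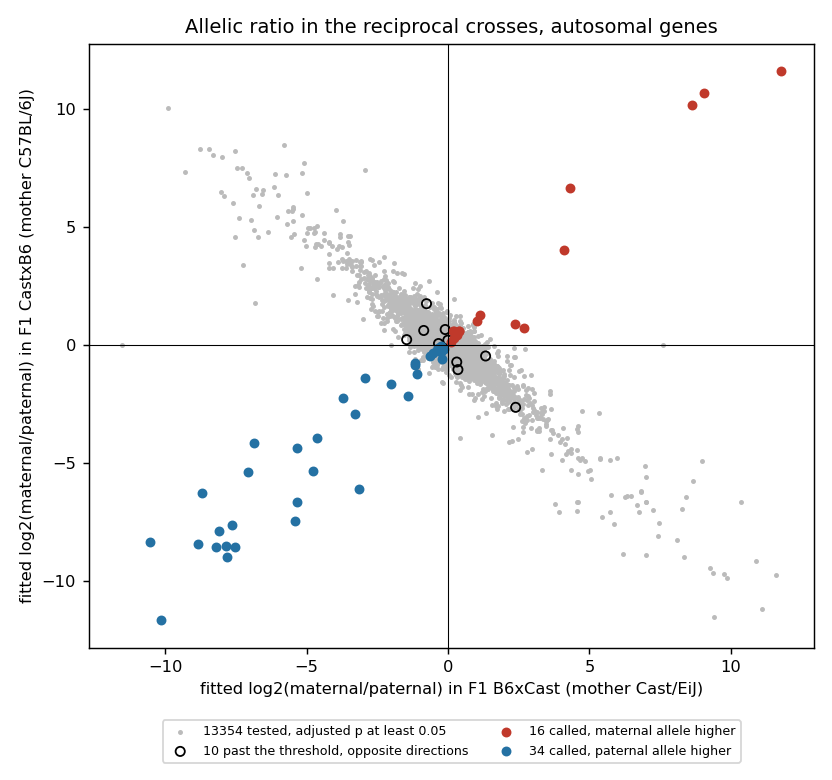
Fitted log2 maternal over paternal ratio of each of 13414 autosomal genes in F1 B6xCast (horizontal axis) against F1 CastxB6 (vertical axis), 3 libraries each. Grey points had an adjusted p of at least 0.05, open circles are the 10 genes past the threshold with opposite directions, and the 16 maternal (red) and 34 paternal (blue) calls lie in the quadrants where both crosses have the same sign; fitted values of genes with 0 hits on an allele have no exact scale.

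The called genes ranged from almost complete silence of 1 allele to a slight excess. The allele with fewer hits contributed under 1% of hits at 13 genes, under 5% at 21, 5% to 20% at 6, 20% to 40% at 8, and at least 40% at 15. The paternal direction made up 17 of the 21 genes under 5%, 4 of the 6 genes at 5% to 20% and 8 of the 15 genes at 40% or more. Among the 50 genes, 40 were protein coding (80% against 93.3% of the genes tested), 6 were lincRNAs, 2 antisense RNAs and 2 pseudogenes. In 44 of the 50, all 6 libraries had more scaled hits on the same parental allele. In whole retina, complete imprinting in some cells and partial imprinting in all cells cannot be told apart, and neither can fewer cells of a type and less RNA per cell.

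**Figure D2:**
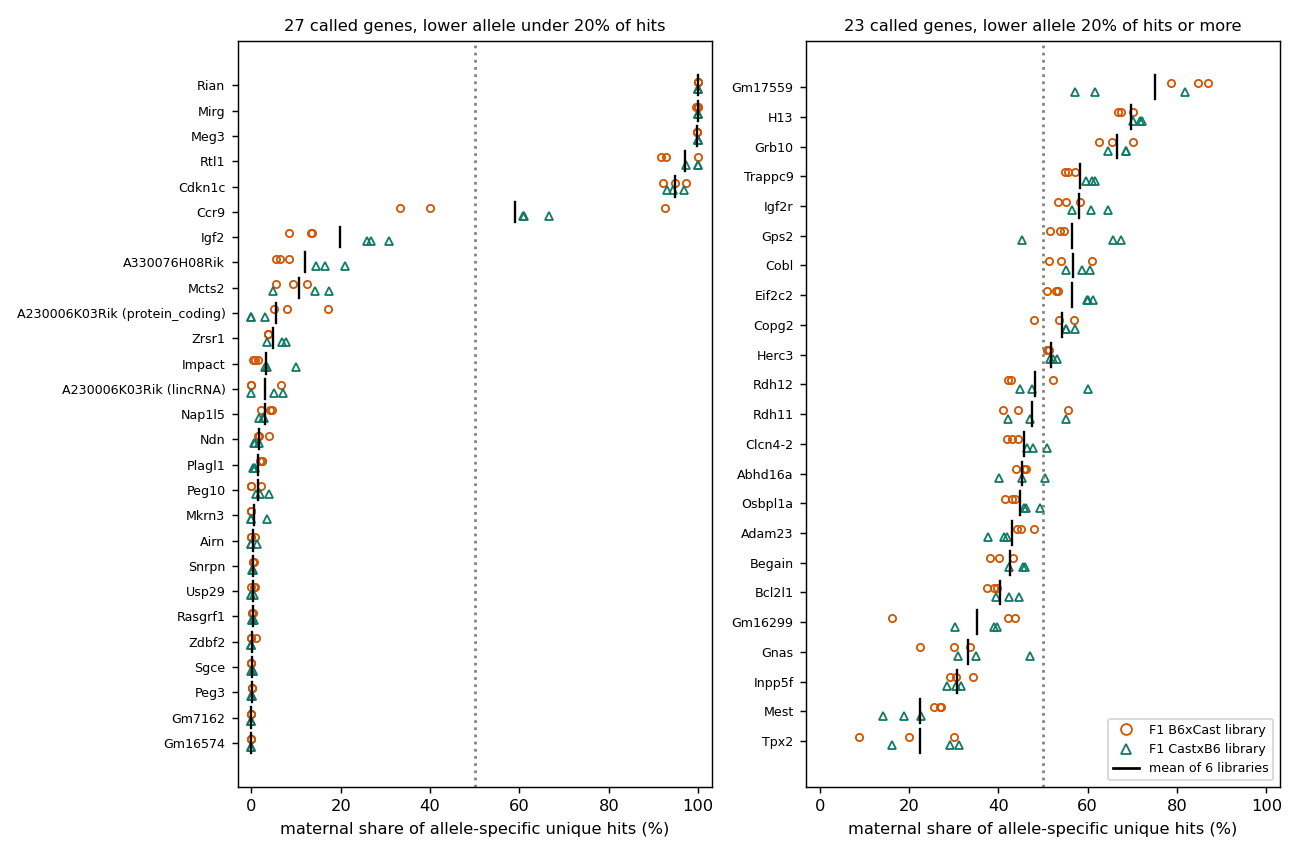
Maternal share of the allele-specific unique hits (percent, horizontal axis) of the 50 called genes in each of 3 F1 B6xCast (circles) and 3 F1 CastxB6 libraries (triangles), with the mean of the 6 as a bar. The 27 genes on the left sit near 0% or 100% except Ccr9, Igf2, A330076H08Rik and Mcts2, and the 23 on the right spread around the 50% line, with Rdh11 and Rdh12 on both sides of it.

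The calls fell into groups along the chromosomes. When called genes separated by at most 1 Mb were joined, 41 of the 50 formed 14 clusters of at least 2 genes, and the other 9 stood alone; gaps of 500 kb or 2 Mb gave the same number of clusters. In 6 clusters both directions occurred, 2 held maternal calls only and 6 paternal calls only. The genes tested within 1 Mb of a cluster and not called had median ratio sizes of 0.03 to 0.26 (log2) per cluster, a description that leaves out the called genes. The 28 nearest tested genes on either side of the clusters had log2 ratios from -0.63 to 0.37. Of these, 2 had an edgeR adjusted p under 0.05, both with opposite directions in the 2 crosses. They were Ppp1r9a beside Peg10 (edgeR adjusted p = 0.038) and Vti1b at 1.67 kb from the retinol dehydrogenase genes (log2 ratio -0.21, edgeR adjusted p = 0.00084). Positions below are those of the deposited tables, on NCBI37. For comparison with current knowledge, 100 symbols of imprinted mouse genes were listed. Of these, 81 were in the tables and 55 gene identifiers were tested, and 36 of the 55 (65.5%, against 0.373% of all genes tested) were called, 11 maternal and 25 paternal. The list was drawn up with earlier results of these data known, so the share is a description.

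**Figure D3:**
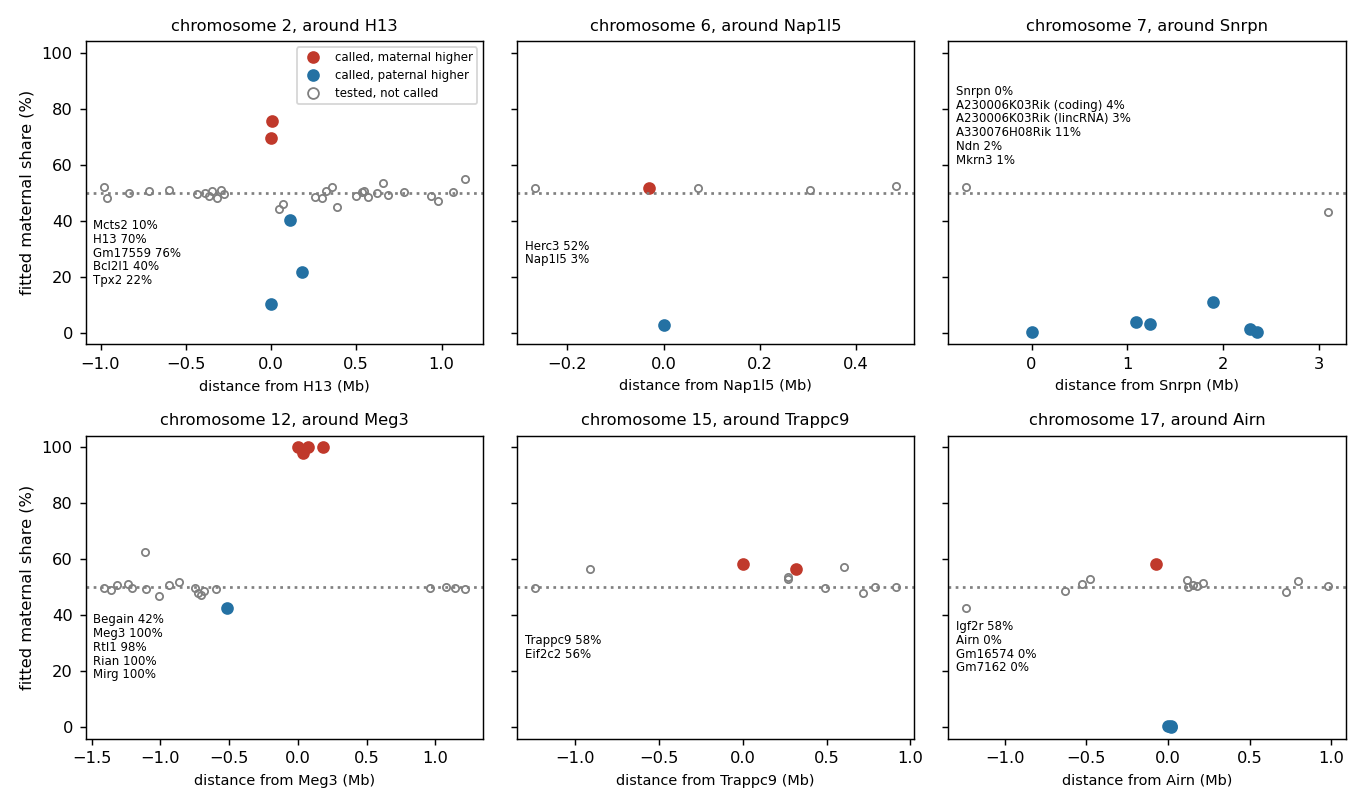
Fitted maternal share (percent, vertical axis) of the tested genes of 6 of the 14 clusters and their surroundings by distance from the gene with the smallest p (Mb, horizontal axis); filled points are called genes, whose shares are written in each panel in chromosomal order, and open points are tested genes that were not called. Called genes on chromosomes 2, 6, 12 and 17 lie on both sides of the 50% line. Those around Snrpn lie from 0.3% to 11.2%, those around Trappc9 lie just above the line, and most open points lie along it.

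The paternally expressed genes with the least maternal RNA included zinc finger, splicing and signalling proteins. Peg3, a zinc finger protein on proximal chromosome 7, had 16 maternal against 28461 paternal hits. Its maternal share was 0.0794%, 0.0930% and 0.0733% in the B6xCast libraries and 0%, 0.0431% and 0.0444% in the CastxB6 libraries, so every library was nearly free of the maternal allele. The fitted log2 ratio was -10.9 ± 0.389 (SE, edgeR adjusted p = 7.3e-218). Usp29, a deubiquitinating enzyme beside it, had 3 maternal of 966 hits, or 0.311% (exact 95% interval 0.0641% to 0.905%). The cluster (chromosome 7, 6656603 to 7252222) closed with Clcn4-2, a chloride/proton exchanger, which was only slightly lower from the mother, with shares of 41.9%, 43.2% and 44.4% in B6xCast and 47.9%, 50.8% and 46.4% in CastxB6. Of its 6 libraries, 5 were below an even share, and the log2 ratio was -0.25 ± 0.05 (edgeR adjusted p = 0.0013, but 1 in DESeq2). Zim1, also in the list and 7.44 kb away, followed the strain instead, with 16.7% to 26.7% maternal hits in B6xCast and 53.1% to 78.6% in CastxB6 (edgeR adjusted p = 0.45 for the parent and 1.3e-07 for the strain).

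The region on chromosome 7 whose human counterpart is deleted in the Prader-Willi and Angelman syndromes held 6 calls, all paternal. The calls spanned 67127388 to 69565039. Snrpn, which encodes the spliceosomal protein SmN of neurons, had maternal shares of 0.491%, 0.315% and 0.445% in B6xCast and 0.310%, 0.355% and 0.130% in CastxB6. Its log2 ratio was -8.19 ± 0.243 over 10250 hits (edgeR adjusted p = 1.2e-175). Necdin (Ndn), a MAGE family protein that promotes neuronal differentiation, had 1.49%, 1.64% and 4.02% maternal hits in B6xCast and 0.756%, 0.605% and 1.74% in CastxB6. The highest library was thus a B6xCast library, and the range stayed under 5%. Mkrn3, a ring finger protein involved in the timing of puberty, had 1 maternal of 259 hits. The noncoding RNA A330076H08Rik was less complete, at 5.46%, 8.49% and 6.47% in B6xCast and 14.5%, 20.9% and 16.5% in CastxB6, and the crosses did not overlap. A230006K03Rik was represented by 2 identifiers, a coding one with 5.32% and a lincRNA with 3.13% maternal hits. Ube3a, the ubiquitin ligase that is maternally expressed in neurons, was tested and not called. Its maternal share was 40.1%, 49.5% and 48.3% in B6xCast and 58.8%, 57.6% and 57.8% in CastxB6, and its log2 ratio was 0.13 (95% interval 0.01 to 0.24, edgeR adjusted p = 0.89). Ube3a, at 565.3 kb, was the nearest tested gene on its side of the span of the 6 calls. On the other side it was the acetylcholine receptor subunit Chrna7 at 678.5 kb, with a log2 ratio of -0.39 (edgeR adjusted p = 0.86).

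The Dlk1-Dio3 domain on chromosome 12 (110270397 to 110987665), whose long noncoding RNAs host small nucleolar RNAs and microRNAs, held 4 of the 16 maternal calls, the same 4 maternal genes whose paternal allele was under 5%. Meg3 had 111130 maternal and 186 paternal hits, the most of any called gene, at 283 to 463 FPKM. Its maternal share was 99.78%, 99.69% and 99.74% in B6xCast and 99.91%, 99.89% and 99.95% in CastxB6, with a log2 ratio of 9.40 ± 0.105 (edgeR adjusted p = 1e-263). Rian, transcribed from the same strand, had 15668 maternal and 4 paternal hits, and Mirg had 1337 and 1. Both stayed at 99.55% or more in every library. Rtl1, a retrotransposon-derived gene, was also higher from the mother, with shares of 91.7%, 92.9% and 100% in B6xCast and 100%, 100% and 97.2% in CastxB6. In the annotation, microRNA genes on the opposite strand lie within its exon, and the libraries did not keep the strand, so that sense and antisense RNA cannot be told apart there. Begain, a synaptic protein gene at the other end of the domain, was the only paternal call among the 5. Its maternal share was 38.1%, 40.2% and 43.3% in B6xCast and 42.4%, 46.0% and 45.4% in CastxB6, all under 50%, and its log2 ratio was -0.44 ± 0.06 (edgeR adjusted p = 2.9e-08). Dlk1 and Dio3, the protein-coding genes that give the domain its name, had 4 and 7 hits in all and were not tested.

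The promoters of 4 of these strongly skewed genes are shown because they stand at the head of the clusters and because the CpG dinucleotide is the site of the methylation that marks a parental allele. Each run is the 250 bases before the RefSeq start (GRCm38.p6, a later build than that of the tables), read 5′ to 3′ on the strand of the gene, with CG in capitals. They lie at chr7:6730420-6730669 for Peg3 (minus strand), chr7:60005200-60005449 for Snrpn (minus), chr6:58907127-58907376 for Nap1l5 (minus) and chr12:109540746-109540995 for Meg3 (plus). Where a gene had several windows, the one with the most CpGs was taken.
Peg3: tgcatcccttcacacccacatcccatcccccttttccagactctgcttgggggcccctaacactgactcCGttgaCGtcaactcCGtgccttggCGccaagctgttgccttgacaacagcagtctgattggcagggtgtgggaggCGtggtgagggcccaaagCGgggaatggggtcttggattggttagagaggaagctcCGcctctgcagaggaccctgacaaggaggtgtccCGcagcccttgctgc
Snrpn: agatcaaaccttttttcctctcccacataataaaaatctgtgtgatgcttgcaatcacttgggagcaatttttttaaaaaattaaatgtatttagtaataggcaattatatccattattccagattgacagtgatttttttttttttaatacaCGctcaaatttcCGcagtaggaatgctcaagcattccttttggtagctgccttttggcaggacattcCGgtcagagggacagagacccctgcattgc
Nap1l5: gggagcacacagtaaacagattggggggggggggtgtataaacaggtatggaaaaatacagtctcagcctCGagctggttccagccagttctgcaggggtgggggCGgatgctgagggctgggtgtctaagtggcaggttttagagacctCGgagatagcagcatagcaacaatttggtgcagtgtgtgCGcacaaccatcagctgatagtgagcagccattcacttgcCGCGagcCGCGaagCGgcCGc
Meg3: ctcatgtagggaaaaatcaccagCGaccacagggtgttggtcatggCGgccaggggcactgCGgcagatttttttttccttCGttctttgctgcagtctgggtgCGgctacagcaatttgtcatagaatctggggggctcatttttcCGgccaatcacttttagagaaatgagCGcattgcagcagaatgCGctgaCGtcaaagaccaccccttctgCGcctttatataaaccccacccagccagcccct
The printed runs held 8, 3, 10 and 10 CpGs in that order. Of the 50 called genes, 37 had a promoter window in the RefSeq table (250 bases before and 50 after the start), and 13 did not. The CpG-richest window of a gene held a median of 17 CpGs over these 37, against 22 over 9232 tested genes and 8 over all 27025 genes of the table. The median was 13 for the 15 genes whose lower allele was under 5% and 24 for the 17 genes at 20% or more. The letters TGCCGC, the methylation-dependent binding motif of the imprint-protecting factor ZFP57, were searched on both strands. They occurred in a window of 13 of the 37 genes (35.1%), of 22.4% of the tested genes and of 13.1% of all genes. Snrpn, Nap1l5 and Meg3 were among the 13 and Peg3 was not. Since genes differ in their number of windows and in CpG content, which the letters include, these shares are descriptions only.

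On chromosome 17 (12875272 to 13052988) the receptor Igf2r, which removes the growth factor Igf2, was higher from the mother, and the antisense RNA Airn that overlaps its start was nearly restricted to the paternal allele. Igf2r had maternal shares of 53.4%, 58.3% and 55.2% in B6xCast and 56.6%, 64.5% and 60.8% in CastxB6. All libraries were above an even share, and the log2 ratio was 0.48 ± 0.07 (edgeR adjusted p = 3.7e-08), although the authors' count equivalents gave 0.46 with an adjusted p of 0.063 in limma. Airn had 2 maternal of 551 hits, or 0.363% (exact interval 0.0440% to 1.31%). The pseudogenes Gm16574 and Gm7162, which lie within Airn, had 0 maternal hits in every library against 252 and 191 paternal hits. Set against a floor of 3 hits over the 6 libraries, the paternal allele was at least 84-fold and 63.7-fold higher. The ligand Igf2 itself, on distal chromosome 7 (cluster 149836673 to 150646955), was paternal but incomplete. Its maternal share was 8.43%, 13.6% and 13.3% in B6xCast and 26.7%, 30.7% and 25.9% in CastxB6, so that the crosses did not overlap, and its log2 ratio was -2.17 ± 0.116 (edgeR adjusted p = 8e-49). In the same cluster the cell cycle inhibitor Cdkn1c was maternal, at 92.1% to 97.3% in the 6 libraries (mean 94.7% ± 2.02, SD, n = 6). Igf2 and Cdkn1c belong to neighbouring domains with separate control regions. Of the Kcnq1 domain, Cd81, Tssc4, Nap1l4 and Osbpl5 were tested and not called, and H19, the maternal noncoding RNA beside Igf2, had 25 maternal and 2 paternal hits, under the minimum for the test.

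On distal chromosome 2 (152495197 to 152721057) the direction changed from gene to gene. H13, which encodes signal peptide peptidase, was maternal, with 66.7%, 67.6% and 70.2% in B6xCast and 70.2%, 72.2% and 71.8% in CastxB6 (log2 ratio 1.20 ± 0.04, edgeR adjusted p = 1.7e-73). Mcts2, a retrogene in an intron of H13 on the same strand, was paternal, with maternal shares of 5.56%, 9.23% and 12.5% in B6xCast and 4.92%, 14.3% and 17.4% in CastxB6. Host and guest thus lay on opposite sides of an even share in all 6 libraries. The lincRNA Gm17559, inside H13 on the opposite strand, had 760 exon bases in common with it and was maternal like it, with 67 of 88 hits. Its call was lost without B6xCast replicate 2 (log2 ratio 1.51, edgeR adjusted p = 0.069) or CastxB6 replicate 2 (1.44, 0.078). Gm17559 was not called in DESeq2 or with count equivalents either (log2 ratio 1.59, limma adjusted p = 0.22). Farther along, Bcl2l1, which encodes the survival protein Bcl-x, had 37.5% to 44.5% maternal hits (log2 ratio -0.56 ± 0.06, edgeR adjusted p = 4.3e-15). Tpx2, a spindle assembly factor at only 0.452 to 0.666 FPKM, had 28 of 129 hits from the mother (edgeR adjusted p = 2.9e-07, but 0.068 in DESeq2). Farther along the chromosome, Gnas, the gene of the G protein alpha subunit Gs, stood outside a cluster. Its unique hits, 431 in all for a gene at 527 to 565 FPKM, were lower from the mother, with shares of 30.2%, 33.7% and 22.4% in B6xCast and 31.0%, 35.0% and 47.2% in CastxB6 (edgeR adjusted p = 1.6e-07). The authors' count equivalents, which also divide hits shared between alleles or genes, had the other direction (log2 ratio 0.33, limma adjusted p = 0.0072). The Gnas locus has several promoters of opposite imprinting and overlaps Nespas and AF085738 on the opposite strand. The part of these in the difference between both measures was not tested.

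At 2 other loci a gene lying within a host gene was paternal as well. Nap1l5, a nucleosome assembly protein gene within Herc3 on chromosome 6 (58781459 to 58870392), had maternal shares of 4.53%, 2.23% and 4.18% in B6xCast and 2.92%, 2.52% and 1.78% in CastxB6 (log2 ratio -5.06 ± 0.164, edgeR adjusted p = 1.3e-118). Herc3, a ubiquitin ligase, was maternal by the smallest ratio of all called genes, with 50.9%, 51.4% and 50.9% in B6xCast and 52.3%, 51.6% and 53.2% in CastxB6. Its log2 ratio of 0.10 ± 0.02 (edgeR adjusted p = 2.7e-06) rests on 40972 hits, had the same sign in 6 of 6 libraries, and missed the threshold with DESeq2 (adjusted p = 0.079) and with count equivalents (0.21). Zrsr1, a splicing factor retrogene within Commd1 on chromosome 11, had 3.60% to 7.80% maternal hits over the 6 libraries. Commd1, a regulator of copper and NF-kappaB that shares 203 exon bases with it, was not called (log2 ratio -0.04, 95% interval -0.33 to 0.26, edgeR adjusted p = 1). It followed the strain, at 32.7% to 46.3% in B6xCast and 53.7% to 61.0% in CastxB6. In count equivalents its log2 ratio was 0.76, with a limma adjusted p of 0.099.

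The imprinted domains of chromosome 6 differed in completeness. Sgce, the sarcoglycan gene whose paternal mutation causes myoclonus dystonia, had 2 maternal of 1322 hits (0.151%, exact interval 0.0183% to 0.545%). Its neighbour Peg10, derived from a retrotransposon, had 9 of 630 (1.43%, 0.655% to 2.69%). Around them (4624350 to 4710517), Casd1, Ppp1r9a and Pon2 of the list were not called. The synaptic scaffold gene Ppp1r9a had an adjusted p of 0.038 in edgeR but fitted ratios of -0.01 in B6xCast and 0.20 in CastxB6. Pon2, a paraoxonase, is an example of a strain effect, with 5.29%, 5.44% and 12.2% maternal hits in B6xCast and 92.3%, 90.5% and 94.4% in CastxB6. Mest, an alpha/beta hydrolase gene (cluster 30673547 to 30846794), was paternal with maternal shares of 27.2%, 26.9% and 25.6% in B6xCast and 22.7%, 14.2% and 18.8% in CastxB6 (log2 ratio -1.79 ± 0.10, edgeR adjusted p = 7.3e-46). In count equivalents the ratio was larger (-3.24, limma adjusted p = 0.00074). Copg2, a coat protein gene whose end overlaps Mest by 904 exon bases on the opposite strand, had 54.6% maternal hits. Its log2 ratio was 0.26 ± 0.06 (edgeR adjusted p = 0.0012), and 1 of the 6 libraries was at 48.0%. Its call was lost without B6xCast replicate 2 (0.25, edgeR adjusted p = 0.052) or replicate 3 (0.21, 0.12). Copg2 was not called in DESeq2 or with count equivalents either (log2 ratio 0.21, limma adjusted p = 0.88).

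In the clusters of 2 genes on chromosomes 11 and 15 both calls were maternal and both alleles were expressed. Grb10, an adaptor that restrains insulin and growth factor receptors and is known to follow the mother in most tissues and the father in neurons, was maternal here. Its shares were 65.5%, 70.0% and 62.4% in B6xCast and 68.6%, 64.6% and 68.5% in CastxB6, and the log2 ratio was 1.02 ± 0.06 (edgeR adjusted p = 3.3e-39). Cobl, the actin nucleator beside it (cluster 11830511 to 12364963), had 51.3%, 54.1% and 61.0% in B6xCast and 58.7%, 55.2% and 60.4% in CastxB6, with a log2 ratio of 0.38 ± 0.07 (edgeR adjusted p = 4.6e-05, but 0.55 in DESeq2). Both genes of the chromosome 15 cluster (72420051 to 73015270) were also maternal, more so in CastxB6 than in B6xCast. Trappc9, a subunit of a vesicle tethering complex, had 55.0%, 55.6% and 57.3% in B6xCast and 61.7%, 59.6% and 61.0% in CastxB6 (log2 ratio 0.49 ± 0.03, edgeR adjusted p = 5.2e-43). Eif2c2, which encodes the RNA interference protein Argonaute 2, had 53.0%, 50.9% and 53.4% in B6xCast and 59.8%, 60.1% and 61.3% in CastxB6 (log2 ratio 0.37 ± 0.03, edgeR adjusted p = 6.3e-26). A second gene identifier with the symbol Eif2c2, an antisense RNA inside the cluster, had a log2 ratio of 0.21 (95% interval -0.03 to 0.46) and was not called (edgeR adjusted p = 0.946). Chrac1, within the cluster, and Ptk2, beside it, were not called, at log2 ratios of 0.17 and -0.01. Kcnk9, a potassium channel of the same domain, had 54 maternal and 0 paternal hits at 4.14 to 5.84 FPKM, which fell under the minimum of 10 per library.

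The clusters on chromosomes 1 and 18 each paired a strongly paternal gene with a slightly paternal neighbour. On chromosome 1 (63319839 to 63643089) the zinc finger gene Zdbf2 had 1 maternal of 506 hits, and Adam23, a neuronal cell adhesion protein, had 44.2%, 48.1% and 45.1% in B6xCast and 41.3%, 42.0% and 37.7% in CastxB6 (log2 ratio -0.40 ± 0.05, edgeR adjusted p = 3.7e-13, but 0.32 with count equivalents in limma). On chromosome 18 (12913823 to 13151457) Impact, an inhibitor of the translation kinase Gcn2 that is abundant in neurons, had 1.43%, 0.462% and 0.790% in B6xCast and 3.53%, 3.02% and 10.03% in CastxB6 (log2 ratio -5.50 ± 0.153, edgeR adjusted p = 1.6e-148). Osbpl1a, a sterol-binding protein gene next to it, was at 41.5% to 49.3%, under an even share in all 6 libraries (log2 ratio -0.29 ± 0.05, edgeR adjusted p = 7.8e-05). Its call was lost with DESeq2 (adjusted p = 0.59) and with count equivalents (0.74).

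Genes that stood alone included 3 more with nearly complete or moderate paternal expression. Rasgrf1, a neuronal activator of Ras, had 16 maternal of 6603 hits, with maternal shares of 0.0817% to 0.548% over the 6 libraries (log2 ratio -8.66 ± 0.372, edgeR adjusted p = 6.4e-157). Plagl1, a zinc finger transcription factor of growth control, had 2.40%, 1.92% and 2.43% in B6xCast and 0.260%, 0.544% and 0.829% in CastxB6. The crosses did not overlap there either, with the higher maternal share where the mother was Cast/EiJ. Inpp5f, a phosphoinositide phosphatase gene with a brain-specific paternal promoter, had 29.2%, 30.5% and 34.3% in B6xCast and 30.5%, 31.6% and 28.6% in CastxB6 (log2 ratio -1.17 ± 0.06, edgeR adjusted p = 2.5e-48).

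In all, 14 of the 50 called genes were not in the list, 5 maternal and 9 paternal, and 10 of the 14 lay in clusters. The other 4 were Ccr9, Gps2, Abhd16a and Gm16299. The chemokine receptor gene Ccr9 rested on B6xCast replicate 1, where 92.6% of its hits were maternal, against 33.3% and 40% in the other B6xCast libraries and 60.9% to 66.7% in CastxB6. Its level ranged from 0.715 to 12.3 FPKM, and without that library the log2 ratio went from 1.70 to -0.02 (edgeR adjusted p = 1). Gps2, a subunit of a transcriptional corepressor complex, had 51.5%, 54.6% and 53.7% in B6xCast and 45.4%, 67.5% and 65.6% in CastxB6. Its call was lost without B6xCast replicate 2 (0.38, edgeR adjusted p = 0.053), CastxB6 replicate 2 (0.28, 0.81) or CastxB6 replicate 3 (0.33, 0.054). Abhd16a, a lipase gene, had 40.1% to 50.3% maternal hits, and its call was lost without B6xCast replicate 1, B6xCast replicate 2, CastxB6 replicate 1 or CastxB6 replicate 2 (log2 ratios -0.29 to -0.20, edgeR adjusted p from 0.10 to 0.90, and -0.26 with 0.28 for the first). The antisense RNA Gm16299 within Rbm20 had 16.1% to 43.8% and lost the call without B6xCast replicate 2, in which it was lowest (log2 ratio -0.62, edgeR adjusted p = 0.40).

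The retinol dehydrogenase genes Rdh11 and Rdh12, the latter a photoreceptor enzyme of the visual cycle, formed the only cluster without a listed gene (chromosome 12, 80275324 to 80323652). Rdh12 had 42.8%, 42.1% and 52.2% maternal hits in B6xCast and 44.9%, 47.5% and 60.1% in CastxB6, and Rdh11 had 41.1%, 44.5% and 55.6% and then 42.1%, 47.1% and 55.1%. In both genes 4 libraries were below and 2 above an even share, and the high library was replicate 3 in each cross. The flanking Vti1b and Zfyve26 were also highest in replicate 3 of each cross, at 62.5% and 46.2% and at 59.7% and 48.6%. Both retinol dehydrogenase calls (log2 ratios -0.17 and -0.13) were lost without B6xCast replicate 1, B6xCast replicate 2, CastxB6 replicate 1 or CastxB6 replicate 2, with log2 ratios of -0.17 to -0.07 for Rdh11 and -0.10 to -0.04 for Rdh12. They also missed the threshold in limma-voom (adjusted p = 0.30 and 0.51) and DESeq2 (1 and 1).

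The lower allele of the most skewed genes was then set against the share of misassigned X hits. Of the 50 called genes, the exact interval of the lower allele lay wholly below 0.526% in 6, included it in 7 and lay wholly above it in 37. The 37 included 8 of the 21 genes whose lower allele was under 5%, among them Peg10, Plagl1, Ndn, Nap1l5, Impact and Zrsr1. Since X genes ranged more widely than the pooled share, their 95th percentile of 2.98% is a stricter comparison, and the lower allele was under it at 17 of the called genes. The intervals cover counting error only.

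**Figure D4:**
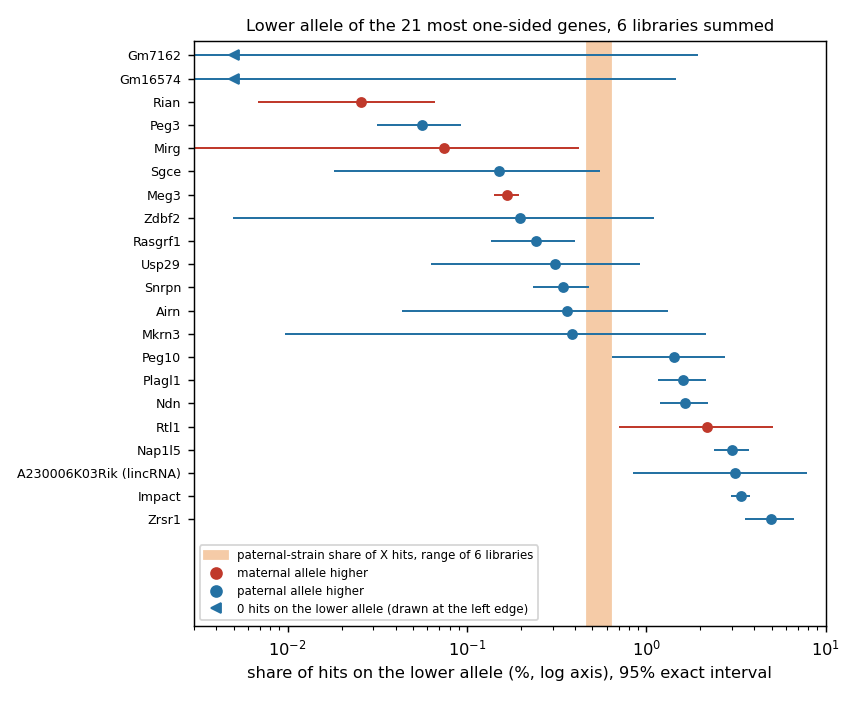
Share of hits on the lower allele (percent, log axis) of the 21 called genes with a share under 5%, summed over the 6 libraries, with exact 95% intervals; red marks genes with a higher maternal allele and blue genes with a higher paternal allele. The band is the range of the paternal-strain share of X chromosomal hits over the 6 libraries (0.468% to 0.637%); Rian, Peg3, Mirg, Meg3, Rasgrf1 and Snrpn lie below its pooled value of 0.526%, and Peg10, Plagl1, Ndn, Rtl1, Nap1l5, the lincRNA A230006K03Rik, Impact and Zrsr1 lie above it.

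The degree of skew differed between the reciprocal crosses at 15 of the 50 called genes (30%, against 55.7% with a strain difference among all genes tested), by the strain term of the same fit. For Impact the maternal share was higher where the mother was C57BL/6J in all 3 against 3 libraries, and the log2 strain difference was -1.36 ± 0.153 (edgeR adjusted p = 6e-21). Without the library at 10.03% the direction of the crosses remains, since the other CastxB6 libraries were at 3.02% and 3.53% and no B6xCast library exceeded 1.43%. Igf2 differed in the same sense by -0.76 ± 0.116 (edgeR adjusted p = 2.7e-09). The paternal share of Meg3 was higher where the father was C57BL/6J (-0.78 ± 0.105, edgeR adjusted p = 1.9e-11). That share of Meg3, 0.167% over all libraries, lay below the 0.526% of misassigned X hits and cannot be told from misassigned hits. Plagl1 (1.03 ± 0.315, 0.00025), Ndn (0.64 ± 0.236, 0.0088) and Mest (0.37 ± 0.10, 0.00062) had a higher maternal share where the mother was Cast/EiJ. The share of X hits on the paternal strain was 0.523% to 0.637% in B6xCast and 0.468% to 0.501% in CastxB6. Without the X gene that had the most such hits, it was 0.457% to 0.574% in B6xCast and 0.233% to 0.270% in CastxB6. Summed markers of 4 of the 12 cell types listed also had ranges that did not overlap between the crosses. With 3 against 3 libraries such ranges can separate by chance, and the share over all genes was not determined. Lens markers were at 11.2 to 12.8 FPKM in B6xCast and 13.7 to 24.4 FPKM in CastxB6, with 3 of 6 markers above 1 FPKM. Cone markers were at 889 to 966 and 981 to 1000 FPKM with 7 of 7 above 1 FPKM, and horizontal cell markers at 5.95 to 6.8 and 6.86 to 7.74 FPKM with 3 of 3. Bipolar cell markers were higher in B6xCast, at 815 to 852 against 784 to 804 FPKM, with 6 of 6 above 1 FPKM. The part of these markers in the differences between the crosses was not tested.

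Of the listed genes, 19 were tested and not called, with fitted log2 ratios from -0.63 (Zim1) to 0.78 (A230056P14Rik). In 15 of the 19 the 95% interval lay within a 1.5-fold difference in either direction. A strain difference was found at 12 of the 19, against 55.7% of all genes tested. Blcap, Cd81, Tssc4, Nap1l4 and Qpct, for example, had ratios between -0.04 and 0.04. In 7 of the 19 (Casd1, Ppp1r9a, Zim1, A230056P14Rik, Ube3a, Osbpl5 and Phactr2) the unadjusted 95% interval excluded 0, so a missed call does not show equal alleles there. Osbpl5 and Phactr2 had log2 ratios of 0.16 (95% interval 0.03 to 0.30) and 0.14 (0.01 to 0.26). The ratio was 0.12 (-0.18 to 0.42) at Sfmbt2, 0.16 (-0.36 to 0.67) at Gatm, -0.13 (-0.44 to 0.18) at Atp10a and -0.12 (-0.73 to 0.49) at Htr2a. Another 27 listed genes were in the tables with too few allele-specific hits. Among them were the MAGE family gene Magel2 with 0 maternal and 22 paternal hits, Cdh15, a cadherin, with 5 and 50, and Nnat, a neuronal membrane protein gene, which was expressed at 28.1 to 32.9 FPKM but had only 2 and 6 allele-specific hits.

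The remaining genes flanking the clusters were not called either. Their log2 ratios were -0.03 at Eef1b2 and -0.12 at Fastkd2 on chromosome 1, and -0.02 at Zcchc3 and -0.08 at Dusp15 on chromosome 2. On chromosome 6 they were 0.03 at Tsga14 and -0.02 at AB041803 beside Mest, and 0.10 at Abcg2 and 0.11 at Fam13a beside Nap1l5. On chromosome 7 Zik1 was at -0.18 and Mrpl23 at -0.11, on chromosome 11 Zpbp at -0.17 and Vstm2a at 0.04, and on chromosome 12 Wdr25 at -0.04 and Ppp2r5c at -0.03 beside the Dlk1-Dio3 domain. On chromosomes 15 and 17 Col22a1 was at 0.37, 4732491K20Rik at 0.17 and Mrpl18 at 0.14, and on chromosome 18 Cabyr was at -0.29 and Zfp521 at 0.09. Casd1 beside Sgce was at -0.11 (95% interval -0.19 to -0.03) and Zfyve26 beside the retinol dehydrogenase genes at -0.10 (-0.18 to -0.03).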

How the data were processed

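Polyadenylated RNA of pooled retinas was sequenced as pairs of 101 bp on 2 lanes for the F1 libraries, without keeping the strand. Per the submitters' processing notes and the study's methods, the authors trimmed reads with Trim Galore 0.2.6, aligned them with Bowtie 0.12.9 to a hybrid transcriptome of Ensembl release 67 (NCBI37), and estimated expression with MMSEQ. The unique hits are a count per gene and allele, deposited by the authors without normalization, and are the main values here. The deposited signal values (count equivalents) are estimates that the authors had scaled between libraries, and served as an alternative. The deposited natural log of expression gave FPKM as its exponential, summed over alleles. The 54 other columns not used include the authors' posterior SDs and their model comparison (probabilities and an imprinting Bayes factor), and 18 F0 columns were also left out.

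Hits of the 12 allele columns were normalized by TMM and fitted with edgeR 4.0.16 (R 4.3.3, limma 3.58.1, DESeq2 1.42.0, Python 3.11.15), with library, strain and parent as terms. Benjamini-Hochberg adjustment of p-values ran over all 13414 genes, and a call needed an adjusted p under 0.05 and the same fitted direction in both crosses. Shares have exact or, for the X chromosome, Wilson 95% intervals, which cover counting error only. Count equivalents were tested as log2 of the value plus 1. Nothing in the labels says that the pools of a cross are from separate litters, so p-values measure the spread between these libraries. In counts simulated at a dispersion of 0.001, 73% of 1.5-fold and 94% of 3-fold changes were called among 13414 genes, with 2 false calls. These values hold for that setting and do not measure false calls in the real libraries.

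Named are all called genes, the listed genes tested and not called, and the nearest tested genes beside each cluster. The genes, the list of imprinted genes and the marker lists were chosen with earlier results of these data known. Robust variance shrinkage was an alternative chosen after seeing the data. Identifiers of all 50 called genes were found in GENCODE vM1 (NCBI37), 48 with the same start and end, and 14 shared exon bases with another gene.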

Additional observations from a re-analysis of the deposited data

Results flagged for a closer look

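Some called genes had a library far from the other F1 libraries by Dixon's criterion over the 6, which chance meets in about 1 in 20 groups. They were the maternal share of Zdbf2 in B6xCast replicate 1 (0.943%), of Ndn in B6xCast replicate 3 (4.02%), of Mkrn3 in CastxB6 replicate 3 (3.45%), of Mirg in B6xCast replicate 2 (99.55%) and of Impact in CastxB6 replicate 3 (10.03%). The values of Zdbf2, Mkrn3 and Mirg come from 1 hit on the lower allele.

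The ratio of the parental alleles differed between the reciprocal crosses by the strain term at 15 called genes. In log2 of the Cast/EiJ over the C57BL/6J allele it was positive at A230006K03Rik (protein coding, 1.49), Plagl1 (1.03), Ccr9 (1.002), Ndn (0.64), Mest (0.37) and Adam23 (0.19). It was negative at Impact (-1.36), Meg3 (-0.78), Igf2 (-0.76), A330076H08Rik (-0.72), Eif2c2 (-0.20), Gps2 (-0.20), Clcn4-2 (-0.12), Trappc9 (-0.11) and Rdh12 (-0.10).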

How the results depend on the processing

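Of the 50 called genes, 33 kept direction and call under every alternative in which they were tested, and 42 kept it whichever library was left out. Genes averaging under 50 hits per library were not tested in the alternative with that minimum. Leaving out 1 library at a time gave 44 to 50 calls, 13 to 18 maternal and 31 to 35 paternal, 35 to 36 listed genes, 12 to 14 clusters and 10 to 18 called genes with a strain difference. DESeq2 called 37 genes, all among the 50, 10 of them maternal, in 9 clusters and 8 with a strain difference. Count equivalents gave 36 calls (35 shared), 8 clusters and 9 genes with a strain difference, and turned Gnas to a log2 ratio of 0.33. Without the requirement of 1 direction in both crosses, 60 genes passed and 25 of them differed by strain. The log2 ratio of Ccr9 turned to -0.0248 without B6xCast replicate 1 and was at most 1.91 without another library. The cause of these changes was not tested. Without the X gene that had the most paternal-strain hits, the maternal share of X hits rose to 99.4%, 99.5% and 99.5% (99.4259, 99.5074 and 99.5427) in B6xCast and to 99.8%, 99.7% and 99.7% (99.7674, 99.7299 and 99.7448) in CastxB6. The deviations of same-numbered libraries of the crosses had correlations of 0.02, 0.01 and 0.02. Libraries of different numbers had correlations from -0.0248 to -2.15e-05. Whether same-numbered libraries share more than a number was not tested. A replicate block in place of the library gave 39 calls, and a replicate block on the allelic ratio 49, all among the 50. Robust variance shrinkage, chosen after seeing the data, gave 47 calls and lost Ccr9, Rdh11 and Rdh12. Genes with few polymorphic reads were not tested, and hits limit the ratios of weakly expressed genes.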
